A study of Mus musculus with 18 samples.

Results

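The genes described here belong to families named for enzymes and complexes that write, remove or read marks on chromatin, or that move nucleosomes. They were chosen by name, as the genes of a mouse expression array whose single annotated symbol begins with Kdm, Kmt, Hdac, Sirt and a number, Smarc, Chd and a number, Brd and a number, Ezh, Setd, Prmt, Dnmt, Tet1, Tet2, Tet3, Arid or Asxl. This gave 102 genes of 9636 with a single symbol, each measured by 1 probe set of the 10335 in the table. They comprised 20 genes of the KMT, SETD and EZH names, 17 lysine demethylases, 11 SMARC genes, 9 histone deacetylases, 9 CHD helicases, 8 ARID genes, 7 sirtuins, 7 genes of DNA methylation, 6 arginine methyltransferases, 6 BRD genes and 2 ASXL genes.

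The cells were Lin-Kit+ bone marrow cells, a progenitor fraction, of Balb/c mice with established myeloproliferative neoplasm (MPN) induced by JAK2V617F, an activating form of the kinase JAK2. A retrovirus had brought it, together with GFP as a marker, into donor cells that were then transplanted. Marrow of 3 to 4 mice per experiment was kept for 16 h in medium that held 100 ng/mL of SCF besides 50 ng/mL of IL-3, either untreated or with a blocking antibody (BA) at 10 µg/mL against TNFR1 or TNFR2, both receptors of tumor necrosis factor (TNF). GFP+ cells (JAK2V617F+) and GFP- cells (JAK2V617F-) were then sorted from the same cultures, so that the JAK2V617F- cells came from diseased mice and had been cultured beside the mutant cells. There were 6 groups: untreated, TNFR1 BA and TNFR2 BA for each genotype, with 3 arrays in every group except untreated JAK2V617F+ cells, where 2 of the 3 were used because the study left out replicate 3 for quality. The comparisons ask which transcripts differ with the genotype and with each receptor block.

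Chromatin carries DNA methylation and histone marks that are placed by methyltransferases and removed by demethylases, deacetylases and TET oxygenases, while SWI/SNF and CHD complexes use ATP to slide or evict nucleosomes. Polycomb repression, in which EZH2 methylates lysine residues of histone H3 and ASXL proteins act with a deubiquitinase, is one of the best known of these systems in blood. In human myeloid neoplasms, TET2, DNMT3A, ASXL1 and EZH2 are among the genes most often mutated beside JAK2.

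Of the 102 genes, 1 passed an adjusted p of 0.05 in any of the 12 comparisons. This gene was Chd9, a chromodomain helicase. Under TNFR1 BA its log2 signal was lower by 4.97 in JAK2V617F+ than in JAK2V617F- cells (SE 0.83, n = 3 against 3, limma adjusted p = 0.0212). In that comparison 0.0871% of all probe sets passed, and the share over the 12 comparisons together was not counted. The JAK2V617F+ arrays there lay near the lowest signal of the data. The Chd9 call was lost in 10 of 29 alternative fits. Kdm1a, which encodes the lysine demethylase LSD1, was the gene of smallest p for the genotype over the 3 treatments, at 1.56 higher in JAK2V617F+ cells (SE 0.41, limma adjusted p = 0.132). It passed the threshold when the replicate number entered the fit as a block (1.42, limma adjusted p = 0.0494). That was 1 of 30 alternative fits, and Kdm1a did not pass in the others. Of the 30, 20 left out arrays and had no block. A random block of the replicate number and the paired test also use the experiment, and Kdm1a did not pass in either. Ezh2, Smarca5 and Hdac1 had the smallest spread within groups of the 102 genes, with an SD of 0.22, 0.33 and 0.37.

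The arrays gave log2 signals from 2.22 to 15.49 with no detection call, and medians of all probe sets between 7.41 and 7.75 on the 17 arrays. Of the values, 7.99% over all probe sets and 5.65% over the chromatin genes lay within 0.05 of the lowest value, a floor at which a probe set gives no order. Kit itself, used for the sort, had signals from 3.71 to 9.95 and was under 4 on 1 array. Markers of blood cell types also moved with the genotype. Their lists were chosen with earlier results of these data known, so this is no independent test. Kit is counted both among the mast cell and basophil markers and among the stem and progenitor markers. The mean of 11 mast cell and basophil markers was 6.72 to 8.81 on the 9 JAK2V617F- arrays. On the 8 JAK2V617F+ arrays it was 10.70 to 12.002. That of 8 erythroid markers was 6.76 to 9.03 and 8.77 to 11.23, in the same order. Of these, 6 mast cell and basophil markers and 2 erythroid markers passed as higher. The median genotype difference was 1.204 for 6 megakaryocyte markers, all above 0, and 0.08 for 11 stem and progenitor markers, of which 1 passed as higher. It was -0.28 for 9 granulocyte markers, -0.62 for 9 monocyte, macrophage and dendritic cell markers, of which 1 passed as lower, -1.30 for 6 B cell markers and -1.56 for 4 T and NK cell markers, with no B, T or NK cell marker above 0. None of the B, T and NK cell markers passed. Ebf1, Cd79b, Cd79a and Vpreb3 were under 4 on 16, 14, 13 and 12 of the 17 arrays and Cd8a on 15, while Igll1 was on 4 and Nkg7 on 0. The B cell mean was 2.37 on untreated and TNFR2 BA JAK2V617F- replicate 3, below the 2.49 to 4.71 of the JAK2V617F+ arrays. The part of cell composition in the genotype differences below was not tested, and in bulk samples fewer cells of a type and less RNA per cell cannot be told apart.

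The promoters of the genes that these results turn on are shown because they are the regulatory sequences closest to them. Each is 300 bases of RefSeq sequence on GRCm38.p6 spanning the annotated start, 5′ to 3′ in the gene's direction, with every CG dinucleotide in capitals. The promoter of Chd9 lies on the plus strand at chr8:90828585-90828884 and that of Kdm1a on the minus strand at chr4:136602674-136602973.
Chd9: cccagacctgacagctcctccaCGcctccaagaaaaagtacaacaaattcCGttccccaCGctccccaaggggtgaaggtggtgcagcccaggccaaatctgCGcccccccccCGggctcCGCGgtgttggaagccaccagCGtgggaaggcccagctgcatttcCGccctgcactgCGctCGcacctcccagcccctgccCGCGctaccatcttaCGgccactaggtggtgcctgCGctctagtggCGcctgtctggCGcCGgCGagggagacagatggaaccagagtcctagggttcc
Kdm1a: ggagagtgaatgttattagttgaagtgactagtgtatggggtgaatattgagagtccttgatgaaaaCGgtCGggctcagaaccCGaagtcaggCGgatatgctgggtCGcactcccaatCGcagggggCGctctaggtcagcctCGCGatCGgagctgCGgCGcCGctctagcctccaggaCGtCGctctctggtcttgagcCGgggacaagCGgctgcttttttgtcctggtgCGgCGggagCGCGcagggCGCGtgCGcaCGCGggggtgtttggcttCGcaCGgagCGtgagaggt
They held 19 and 29 CG dinucleotides. A second annotated start of Chd9, at chr8:90931999-90932298, held 1. Promoters were found for 83 of the 102 genes, with 112 starts, and these had a median of 24 CG dinucleotides against 7 over all 32851 promoters in the table. At least 10 were present in 87.5% of the promoters of chromatin genes and in 43.5% of all promoters. The STAT motif TTCNNNGAA, searched on both strands, was in 9.82% of them and in 8.3% of all, the GATA motif AGATAA in 8.04% and 11.2%, and the NF-kB consensus in 4.46% and 4.51%. None of these motifs was found in the promoters of Chd9, Kdm1a or Asxl2, while Sirt2 had the NF-kB consensus. A match is a run of letters only, and no binding was measured.

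Chd9 was near the floor everywhere except under TNFR1 BA in JAK2V617F- cells. The signals there were 6.63, 7.76 and 7.23 on replicates 1, 2 and 3. In JAK2V617F+ cells under TNFR1 BA they were 2.22, 2.27 and 2.22. The groups did not overlap, and the highest value on any other array was 4.5044, in JAK2V617F- cells under TNFR2 BA. Because 1 side of the comparison lies at the floor, the size of the difference depends on that floor. So do its SE and p, since the fit takes 1 variance over all 6 groups, most of them near the floor. Untreated JAK2V617F- cells had 2.22, 2.22 and 3.18, so that TNFR1 BA against untreated gave 4.66 in JAK2V617F- cells (SE 0.83), which did not pass over all probe sets (limma adjusted p = 0.271). TNFR2 BA against TNFR1 BA in the same cells gave -4.22 (SE 0.83, adjusted p = 0.301), and the difference between genotypes in the response to TNFR1 BA was -5.27 (SE 1.24, adjusted p = 0.814). These contrasts share the arrays of TNFR1 BA JAK2V617F- cells with the comparison that passed.

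The Chd9 call was the chromatin genes' share of 9 calls among all probe sets for the genotype under TNFR1 BA, where 0.0871% of probe sets were called. It was lost in fits that left out any array of the 2 groups except TNFR1 BA JAK2V617F- replicate 1, with adjusted p from 0.0548 to 0.107, in fits that left out any 1 replicate number (0.223 to 0.43), and in a fit on these groups alone (adjusted p = 0.805). With the replicate block it was kept (adjusted p = 0.0223).

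**Figure D1:**
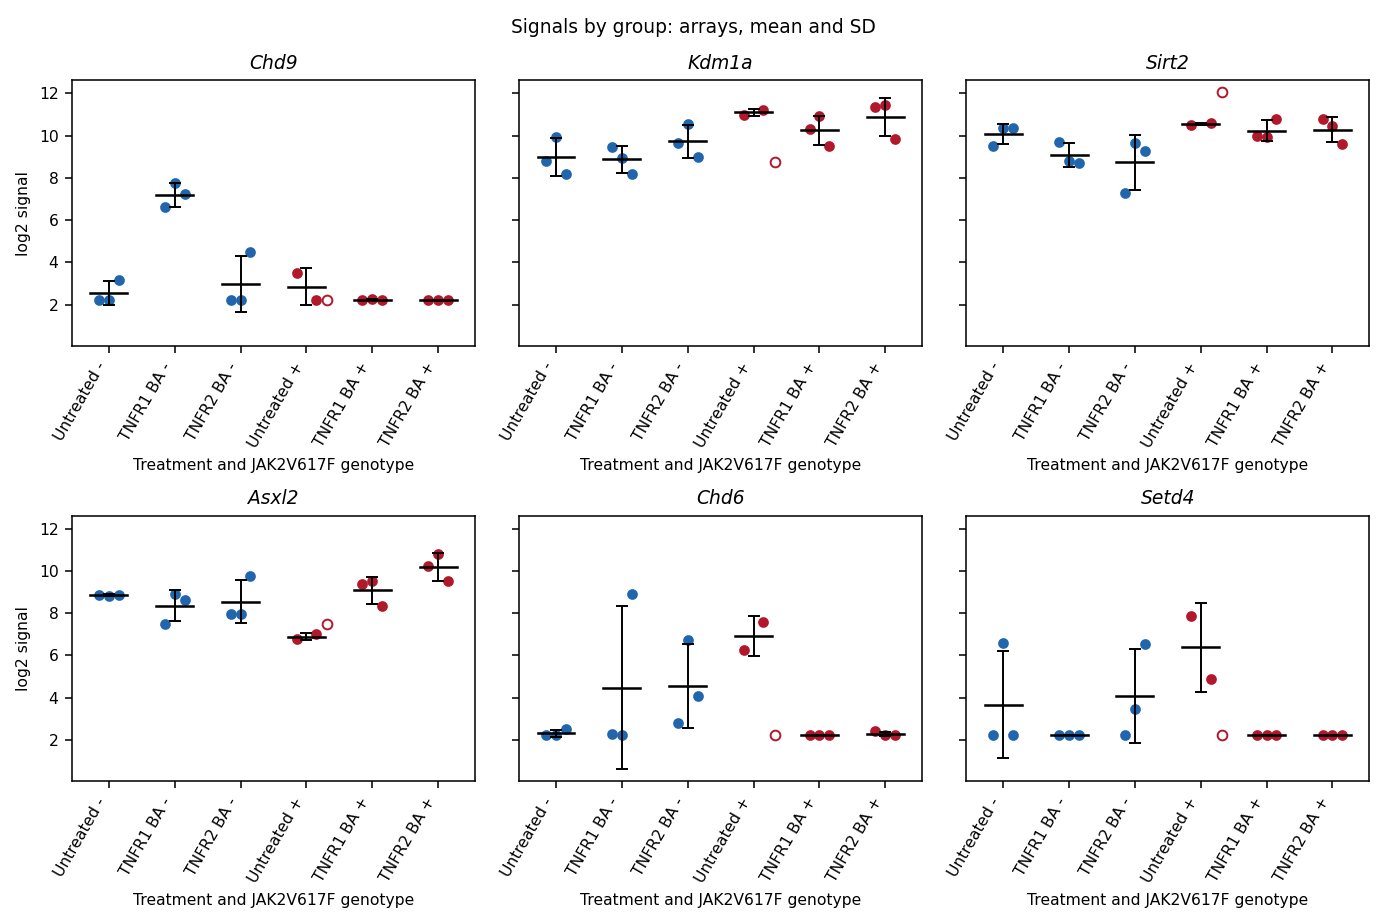
Log2 signals (vertical axis) of 6 chromatin genes in the 6 groups of treatment and JAK2V617F genotype (horizontal axis, blue for JAK2V617F- and red for JAK2V617F+). Filled points are arrays, lines and bars are the mean and SD, and the open point is the untreated JAK2V617F+ array that was left out. Chd9 is above 6 on the 3 arrays of TNFR1 BA JAK2V617F- cells and at 4.5044 or below on all others, and Kdm1a is on average higher in JAK2V617F+ cells in each treatment.

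Kdm1a, the demethylase LSD1 of corepressor complexes that restrain blood progenitor genes, was measured well above the floor on every array. In untreated cultures its signals were 8.80, 9.95 and 8.18 in JAK2V617F- cells and 11.002 and 11.22 in JAK2V617F+ cells. Under TNFR1 BA they were 9.47, 8.95 and 8.19 in JAK2V617F- cells and 10.32, 10.91 and 9.51 in JAK2V617F+ cells. The groups did not overlap in either treatment. Under TNFR2 BA they were 9.64, 10.53 and 8.99 in JAK2V617F- cells against 11.34, 11.46 and 9.84 in JAK2V617F+ cells, where the lowest mutant value lay below the highest JAK2V617F- value. Within all 8 pairs of the same experiment and treatment the JAK2V617F+ array was higher, by 0.85 to 2.19. These pairs come from 3 experiments and so are not independent. The difference was 2.13 in untreated cultures (adjusted p = 0.512), 1.38 under TNFR1 BA (adjusted p = 0.815) and 1.16 under TNFR2 BA (adjusted p = 0.92). The array that was left out had a Kdm1a signal of 8.76, below both untreated JAK2V617F+ arrays used, and with all 18 arrays the difference over the 3 treatments was 1.295, with an adjusted p of 0.305, and that in untreated cultures was 1.35.

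Over the 3 treatments, no chromatin gene passed the adjusted threshold in limma, where 37 probe sets, 0.358%, passed. At an unadjusted p under 0.05 there were 6 genes, 3 in each direction, or 5.88% against 10.3% of all probe sets. The median difference of the chromatin genes was 0.21 higher in JAK2V617F+ cells and that of all probe sets was 0.00. Of the 102 differences 61 were above 0, or 59.8% against 50% of all probe sets. The median over the genes of experiments 1, 2 and 3 was 0.26, 0.17 and -0.13, with an SD of 0.20, so the shift of the median was about as large as its spread between experiments. It was 0.05 with all 18 arrays, 0.07 without all arrays numbered replicate 1 and 0.08 without TNFR2 BA JAK2V617F+ replicate 1. Sirt2, a sirtuin deacetylase that acts largely on tubulin and other cytoplasmic proteins, was the only other gene that was higher in JAK2V617F+ cells in all 8 pairs, by 0.23 to 3.52, with a difference of 1.07 (SE 0.40, adjusted p = 0.354). Its signals in JAK2V617F+ cells were 9.61 to 10.80 and in JAK2V617F- cells 7.26 to 10.37, so the genotypes overlapped. Under TNFR2 BA the Sirt2 difference was 1.55, and 0.81 without TNFR2 BA JAK2V617F- replicate 1. No gene was lower in all 8 pairs. The pairs come from 3 experiments and so are not independent. The share of all probe sets alike in all 8 pairs was not counted, so the pairs do not set Kdm1a and Sirt2 apart.

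**Figure D2:**
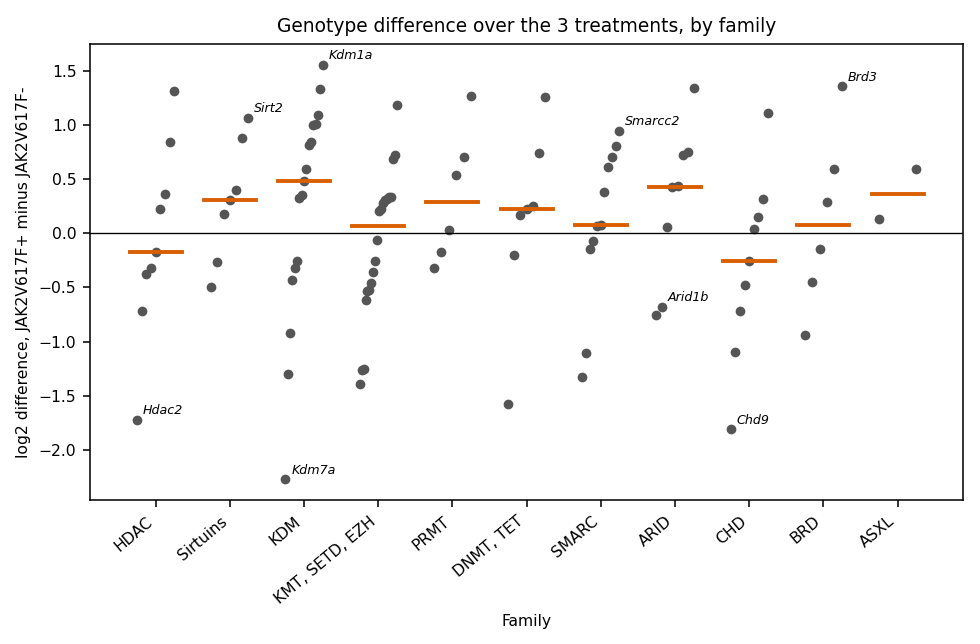
Log2 difference between JAK2V617F+ and JAK2V617F- cells over the 3 treatments (vertical axis) for each of the 102 chromatin genes (points), by family (horizontal axis), with the family median as an orange line. The genes of smallest p are named, and points of every family except ASXL lie on both sides of 0.

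The 20 genes of the KMT, SETD and EZH names were split, with 10 differences above and 10 below 0 and a median of 0.07. Ezh2, the catalytic subunit of polycomb repressive complex 2, had the smallest spread within groups of all 102 genes (SD 0.22) and signals between 10.74 and 11.85. Its untreated JAK2V617F+ arrays were at 11.002 and 10.74, below all other arrays used, and its difference over the 3 treatments was -0.26 (SE 0.20, adjusted p = 0.693). Kmt2a, the MLL methyltransferase that maintains HOX gene expression, differed by -1.39 (SE 0.76, adjusted p = 0.536), with signals of 6.27 to 9.76 in JAK2V617F- and 4.78 to 9.38 in JAK2V617F+ cells. Setdb1, which methylates lysine residues for heterochromatin, differed by -1.25 (SE 0.73), Kmt2d by 0.72 (SE 0.61) and Setd2, the methyltransferase of transcribed gene bodies, by 0.32 (SE 0.72). The 6 arginine methyltransferases ranged from -0.32 for Prmt3 to 1.27 for Prmt9. Prmt1, the main enzyme of asymmetric arginine methylation, differed by 0.03 (SE 0.31) and Prmt5, which makes symmetric methylation and is a known target of mutant JAK2, by 0.54 (SE 0.44). None of these passed the threshold.

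The genes of DNA methylation had unequal spread between arrays. Dnmt1, the maintenance methyltransferase, lay between 10.48 and 12.35 on the 17 arrays, with a genotype difference of 0.17 (SE 0.26, 95% confidence interval -0.38 to 0.72). Dnmt3a, a de novo methyltransferase, lay between 5.29 and 9.77 and differed by 0.25 (SE 0.65). Tet2, which oxidises methylcytosine, had 6.94, 3.45 and 10.40 on the 3 untreated JAK2V617F- arrays and 5.93 and 3.04 on the untreated JAK2V617F+ arrays. The Tet2 values of a single group thus spanned most of the range of the gene, and its difference of -1.57 (SE 1.03) had a 95% confidence interval from -3.73 to 0.59, which includes differences in both directions. Tet3 differed by 1.26 (SE 0.97), and Tet1 had a signal under 4 on 15 of the 17 arrays.

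**Figure D3:**
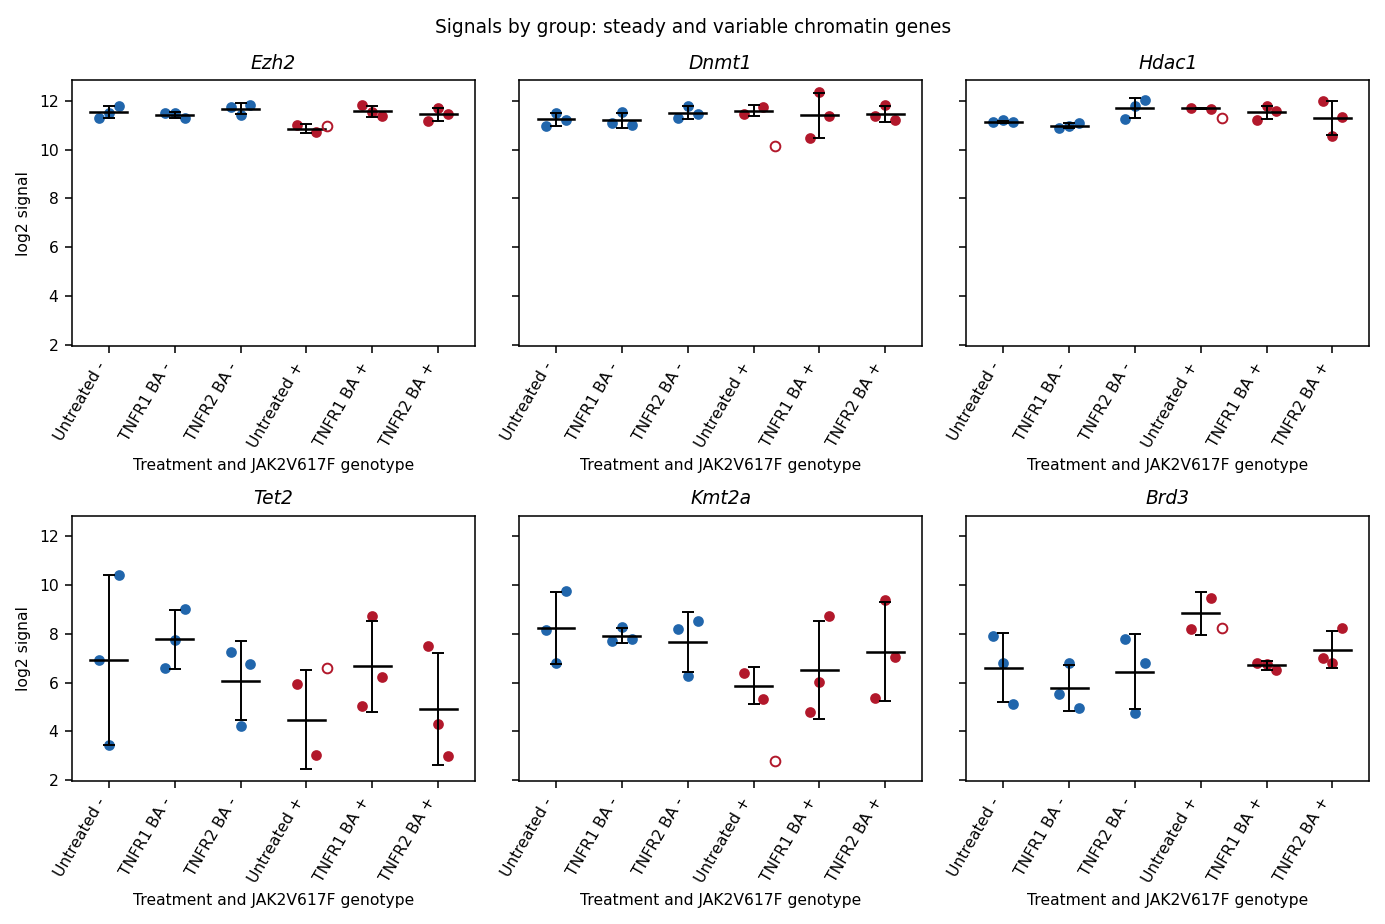
Log2 signals (vertical axis) of Ezh2, Dnmt1, Hdac1, Tet2, Kmt2a and Brd3 in the 6 groups (horizontal axis), with arrays as points, mean and SD as lines and bars, and the left-out array as an open point. The Ezh2, Dnmt1 and Hdac1 signals of the arrays used stay between 10.48 and 12.35, while those of Tet2 run from 3.01 to 10.40.

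Among the erasers, the 17 lysine demethylases had 11 differences above 0, beside 50% of all probe sets, and a median of 0.48. Kdm1a was at the top and Kdm7a, a demethylase of repressive marks, was lowest at -2.27 (SE 0.99, adjusted p = 0.439). Kdm7a was at 4.79, 6.37 and 7.30 in untreated JAK2V617F- cells and at 3.19 and 2.26 in untreated JAK2V617F+ cells, without overlap. Under TNFR2 BA the JAK2V617F+ arrays were at 7.22, 3.17 and 8.84, across the JAK2V617F- range of 6.31 to 8.81. Kdm6a and Kdm6b, which remove the mark that EZH2 places, differed by 0.85 (SE 1.14) and 0.36 (SE 0.85), and each was under 4 on 10 arrays.

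The 9 histone deacetylases had a median of -0.17. Hdac1 lay between 10.57 and 12.05 on all arrays used and differed by 0.22 (SE 0.23), and Hdac3, the catalytic subunit of the NCoR complex, by 0.84 (SE 0.58). The Hdac2 probe set was under 4 on 13 of 17 arrays, and its difference of -1.72 (SE 0.84, adjusted p = 0.49) rested mostly on JAK2V617F- arrays at 8.09 in untreated cultures, 5.97 and 6.56 under TNFR1 BA and 5.55 under TNFR2 BA. All JAK2V617F+ arrays were at 3.67 or below for Hdac2, so that its difference depends on the floor, and without untreated JAK2V617F- replicate 1 it was -1.11. Without all arrays numbered replicate 1 it was -0.72. Sirt1, a nuclear sirtuin, differed by -0.50 (SE 0.63).

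Signals of different probe sets do not measure relative amounts of RNA. Of the 11 SMARC genes, Smarcd2, a SWI/SNF subunit needed for granulocyte maturation, had the highest mean of all 102 genes (12.56), followed by Prmt1 (12.07) and Smarca5, the ISWI ATPase (11.85). Smarca4, the BRG1 ATPase, differed by 0.61 between genotypes (SE 0.48) and the core subunit Smarcb1 by -0.15 (SE 0.49). Smarcc2, a scaffold subunit, differed by 0.94 (SE 0.44, adjusted p = 0.479), by 0.29 with all 18 arrays and by 0.51 without all arrays numbered replicate 3. Of the 8 ARID genes, 6 differences were above 0, beside 50% of all probe sets. Arid1a, the DNA-binding subunit of canonical BAF, differed by 0.44 (SE 0.48), Arid2, of the PBAF complex, by 0.06 (SE 0.46), and Arid1b by -0.68 (SE 0.29, adjusted p = 0.422). Arid1b was tight in JAK2V617F- cells, at 10.53 to 11.28, and lower on the untreated JAK2V617F+ arrays, at 10.13 and 9.18. Among the bromodomain genes, Brd3, which binds acetylated histones, differed by 1.35 (SE 0.67, adjusted p = 0.495). Chd4, the ATPase of the NuRD complex, differed by -0.26 (SE 0.62).

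The genotypes were also compared within each treatment. In untreated cultures 0 passed the adjusted threshold (0.0774% of all probe sets did) and 7 an unadjusted p under 0.05, against 7.32% of all. Under TNFR1 BA, 2 were under an unadjusted p of 0.05, against 6.21% of all, and the other beside Chd9 was Smarce1, a SWI/SNF subunit, at -3.12 (SE 0.94, adjusted p = 0.52). Smarce1 had 6.44, 3.34 and 6.36 in JAK2V617F- and 2.31, 2.26 and 2.22 in JAK2V617F+ cells, so its difference also depends on the floor. Under TNFR2 BA, 0 passed the adjusted threshold (0.0387% of all) and 6 the unadjusted one, against 5.63% of all. Setdb2 was at 8.27, 6.96 and 5.30 in JAK2V617F- and 2.70, 3.99 and 5.26 in JAK2V617F+ cells, a difference of -2.86 (SE 1.07, adjusted p = 0.772). The median differences of the chromatin genes were 0.29, 0.19 and 0.05 in untreated, TNFR1 BA and TNFR2 BA cultures, against -0.08, 0.10 and -0.01 over all probe sets.

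The treatments were next compared with the untreated cultures within each genotype. Both comparisons of a genotype share its untreated arrays, of which there were 2 in JAK2V617F+ cells, so a value on those arrays enters both. In JAK2V617F+ cells under TNFR1 BA, 0 chromatin genes passed in limma (0.00968% of all probe sets did), and 5 had an unadjusted p under 0.05 against 6.78% of all. Under TNFR2 BA, 0 passed (0.029% of all), and 6 had an unadjusted p under 0.05 against 5.26% of all. Their medians were -0.20 and -0.08, and those of all probe sets 0.10 and 0.06. With all 18 arrays both medians of the chromatin genes turned above 0, to 0.02 and 0.23, and that for TNFR2 BA was 0.25 without untreated JAK2V617F+ replicate 2 and 0.24 without TNFR2 BA JAK2V617F+ replicate 3.

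Asxl2, a polycomb-associated scaffold that is a paralog of Asxl1, had the smallest p of the chromatin genes for TNFR2 BA in JAK2V617F+ cells. It was at 6.76 and 7.001 in untreated JAK2V617F+ cells, at 9.38, 9.53 and 8.34 under TNFR1 BA and at 10.22, 10.83 and 9.52 under TNFR2 BA. The treated groups did not overlap the untreated arrays, and the array left out, at 7.48, also lay below them. The difference was 3.31 under TNFR2 BA (SE 0.84, 95% confidence interval 1.53 to 5.08, adjusted p = 0.683) and 2.20 under TNFR1 BA (SE 0.84, adjusted p = 0.633), neither past the threshold. In JAK2V617F- cells Asxl2 was at 8.88, 8.81 and 8.89 untreated, between 7.51 and 8.91 under TNFR1 BA and between 7.95 and 9.75 under TNFR2 BA, with overlap. The untreated JAK2V617F+ arrays were thus below all JAK2V617F- arrays for Asxl2, and the difference between genotypes in the response to TNFR2 BA was 3.61 (SE 1.13, adjusted p = 0.997).

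Asxl1, the ASXL gene mutated in human myeloid neoplasms, had treatment differences in JAK2V617F+ cells of 1.36 under TNFR1 BA and 2.78 under TNFR2 BA, in the direction of Asxl2 and on the same untreated arrays. Setd4 and Chd6 went the other way. Setd4, a SET domain gene, was at 7.88 and 4.88 in untreated JAK2V617F+ cells and at 2.22 on all 6 treated JAK2V617F+ arrays. Chd6 was at 6.24 and 7.60 untreated, at 2.22 on the 3 arrays of TNFR1 BA and at 2.22 to 2.40 under TNFR2 BA. The treated arrays of both genes lay at the floor, on which the size of their differences depends, and the array left out was at 2.22 for both. With that array in the fit, the Chd6 difference under TNFR1 BA changed from -4.71 to -3.14, and that of Setd4 from -4.16 to -2.78. Without untreated JAK2V617F+ replicate 1 that of Setd4 was -2.66. None of these passed (adjusted p = 0.541 for Setd4 and 0.551 for Chd6 under TNFR1 BA).

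In JAK2V617F- cells no chromatin gene and no other probe set passed for either antibody (0% of all probe sets in limma). At an unadjusted p under 0.05 there were 2 chromatin genes under TNFR1 BA (3.73% of all probe sets) and 1 under TNFR2 BA (2.47% of all). The 2 were Chd9 and Chd8, the latter a helicase that restrains WNT target genes, at 6.69, 2.22 and 8.19 untreated and 2.29, 2.30 and 2.22 under TNFR1 BA, a difference of -3.43 (SE 1.48, adjusted p = 1) against arrays at the floor. It was -5.17 without untreated JAK2V617F- replicate 2 and -2.18 without replicate 3 of that group. The 1 was Chd3, another NuRD ATPase, at -2.03 (SE 0.89, adjusted p = 1), and at -1.21 without untreated JAK2V617F- replicate 2. The medians were -0.03 for TNFR1 BA and 0.07 for TNFR2 BA, against -0.09 and -0.01 over all probe sets.

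Between the antibodies 0 chromatin genes passed, as did 0% of all probe sets, in either genotype. At an unadjusted p under 0.05, 2 of the 102 differed in JAK2V617F+ cells (4.37% of all probe sets) and 3 in JAK2V617F- cells (3.7% of all). Chd4 was at 9.96, 6.33 and 10.88 under TNFR1 BA and 11.41, 11.94 and 12.18 under TNFR2 BA in JAK2V617F+ cells, without overlap, a difference of 2.79 (SE 1.04, adjusted p = 1). Without TNFR1 BA JAK2V617F+ replicate 2 the difference was 1.42. In JAK2V617F- cells Setdb2 differed by 3.75 (SE 1.07, adjusted p = 0.962) between TNFR2 BA and TNFR1 BA.

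The test of whether a treatment acted differently in the genotypes also called 0 chromatin genes and 0% of all probe sets. At an unadjusted p under 0.05 it gave 7 for TNFR1 BA (5.22% of all probe sets) and 8 for TNFR2 BA (3.83% of all). The largest estimate for TNFR2 BA was that of Arid4b, of a SIN3 corepressor complex, at 7.37 (SE 2.90, adjusted p = 0.997). The paired test of the study's methods, which they describe for JAK2V617F+ against JAK2V617F- cells, was also applied here to the antibody comparisons. Adjusted over all probe sets, it called 0 chromatin genes in each of the 10 comparisons it could be run on. It called 0 to 11 of all probe sets there. Each comparison had 2 or 3 pairs, except the genotype over the 3 treatments, which had 8. Those 8 pairs come from 3 experiments and so are not independent. With so few pairs, 0 calls cannot show that the genes do not differ. At an unadjusted p under 0.05 the paired test gave 1 to 10 of the 102 chromatin genes, or 0.98% to 9.8%. The share of all probe sets was 3.3% to 9.39%. The 10 were found for TNFR2 BA in JAK2V617F- cells, where the share of all probe sets was 3.74%.

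**Figure D4:**
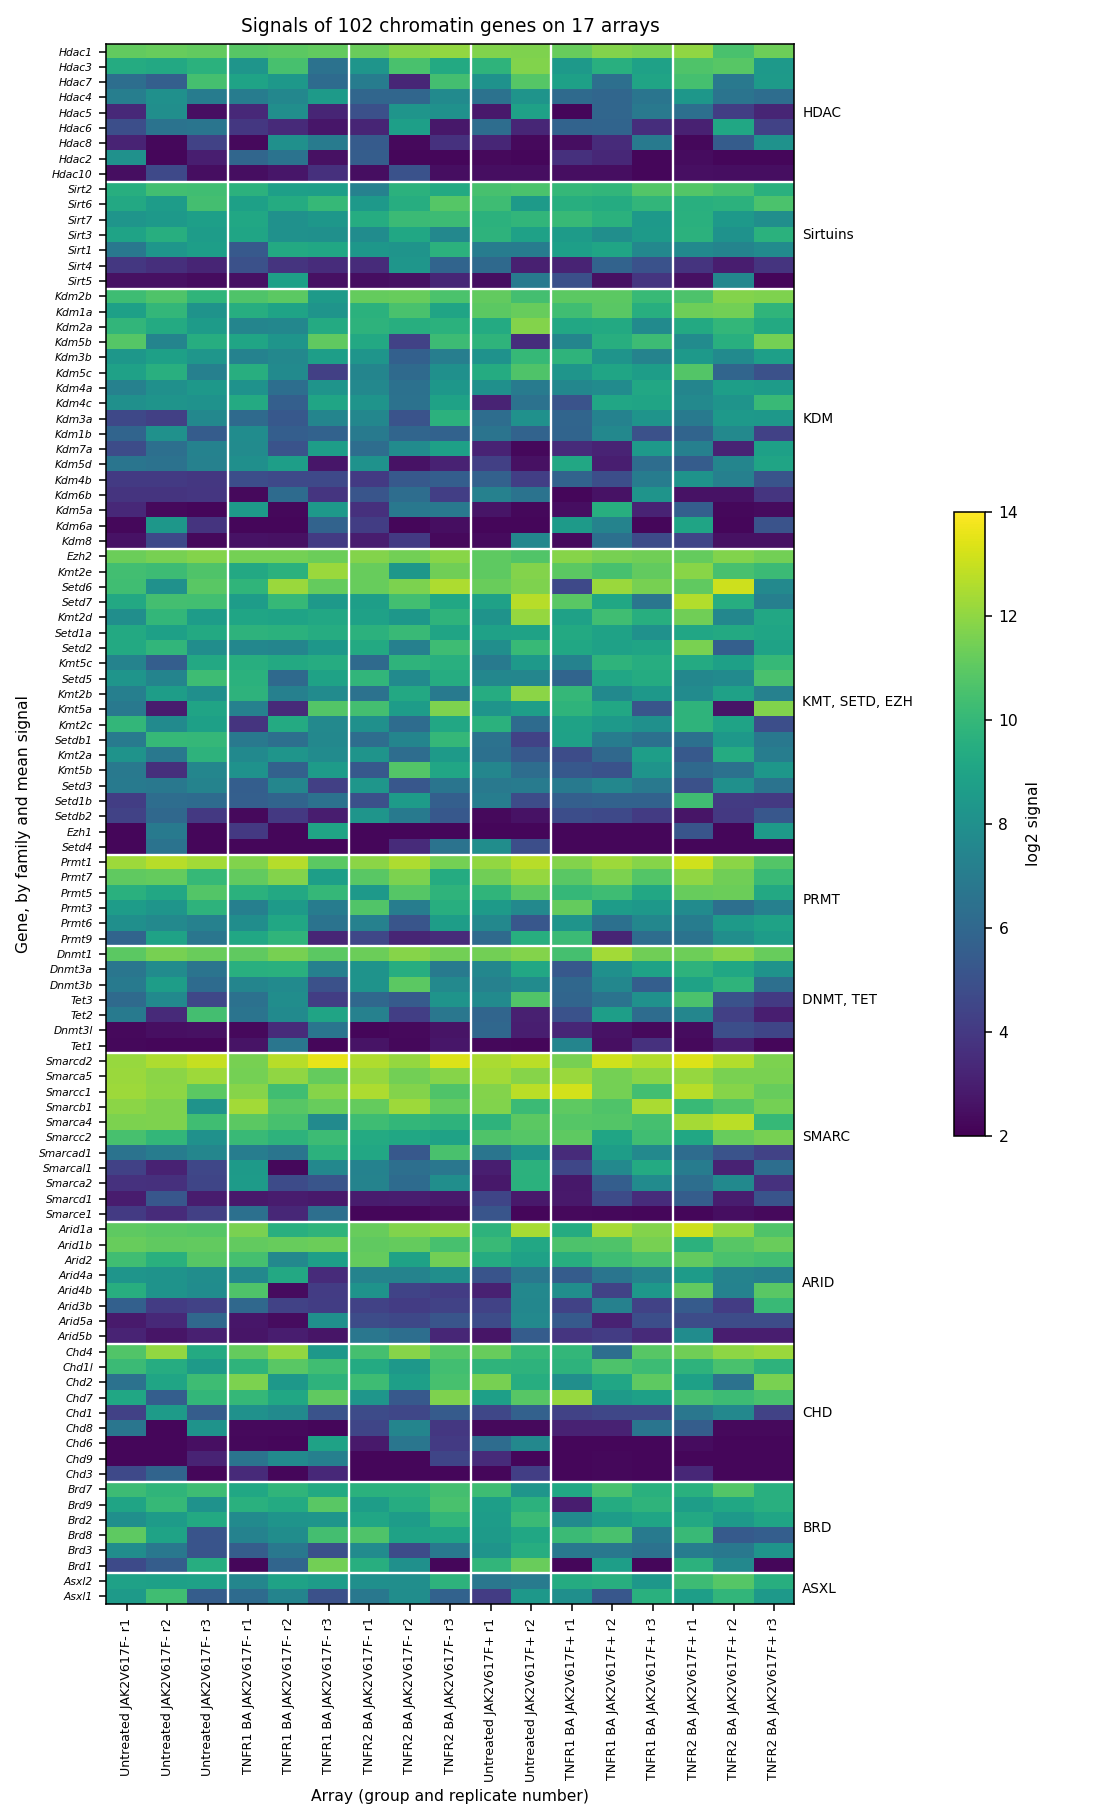
Log2 signals (colour, from 2 to 14) of the 102 chromatin genes (rows, by family and mean signal) on the 17 arrays (columns, by group and replicate number). Within a family the rows run from the highest to the lowest mean, and 43 genes are under 4 on at least 1 array.

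The spread between arrays of a group was smallest for bright probe sets. The median within-group SD of the chromatin genes was 1.41, against 1.45 over all probe sets. It was 0.84 for the 16 genes with a mean of 10 or more and 1.997 for the 26 with a mean between 4 and 7, against 0.66 and 1.92 over all probe sets in those ranges. Ezh2, Smarca5 (SD 0.33) and Hdac1 (SD 0.37) had the smallest spread. Brd1, a subunit of a histone acetyltransferase complex, had the largest (SD 3.63), followed by Kmt5a (SD 3.15), which methylates histone H4, and Arid4b (SD 2.68).

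Brd1 was at 2.22, 8.74 and 2.22 in JAK2V617F+ cells under TNFR1 BA and at 9.70, 7.58 and 2.22 under TNFR2 BA. A single group thus held values at the floor and values above 7. Of the 102 genes, 59 were never under 4, 57.8% against 45.9% of all probe sets, and 15 had a mean under 4. The lowest means were those of Hdac10 (2.81), Chd3 (2.90) and Tet1 (3.03). A range of over 5 within at least 1 group was found for 39 chromatin genes, 38.2%, and for 38.2% of all probe sets.

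**Figure D5:**
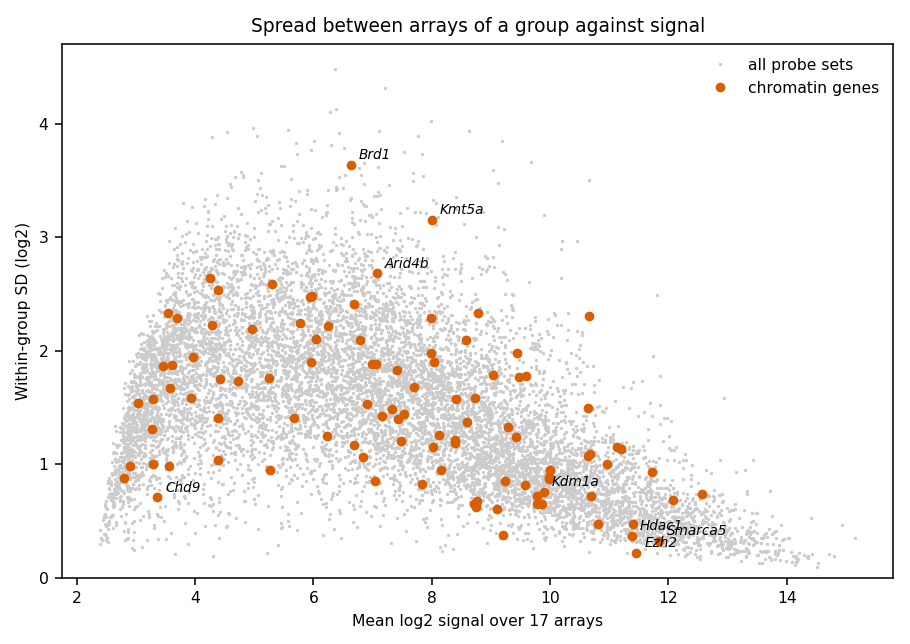
Within-group SD (vertical axis, log2) against mean log2 signal over 17 arrays (horizontal axis) for all 10335 probe sets (grey) and the 102 chromatin genes (orange). The bright genes Ezh2, Hdac1 and Smarca5 lie at the low end of the spread, and Brd1 and Kmt5a lie above 3.

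Other genes of chromatin with different names, from a list of 137 histone acetyltransferases, polycomb, corepressor, remodeling and reader genes, were measured for 107. In each of the 12 comparisons 0 of them passed in limma. For the genotype over the 3 treatments, 10 were higher and 2 lower at an unadjusted p under 0.05, or 12 of 107 beside 10.3% of all probe sets, with a median difference of 0.00. Smyd3, a SET and MYND domain methyltransferase, had the smallest p (2.41 higher, SE 0.57, adjusted p = 0.0917), and the polycomb genes Mtf2 and Bap1 were at -2.73 (SE 0.92) and 1.88 (SE 0.65).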

How the data were processed

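The values of each probe set of the Affymetrix mouse arrays are log2 signals that the authors deposited after processing with Affymetrix Expression Console, per the labels. How these were normalized is not given in the sources used. No filter was applied to the deposited log2 values, and the 102 genes each had 1 probe set (79 with a mean of 5 or more). Of 1 further gene that matches the names nothing is reported here. Differences were fitted with limma 3.58.1 in R 4.3.3, with 1 mean for each of 6 groups and variances moderated along a signal trend. The 12 comparisons had Benjamini-Hochberg adjustment over 10335 probe sets and a threshold of 0.05. The code was run on simulated data with large genotype shifts over the 3 treatments. Those data had independent normal noise, no floor and no effect of the experiment, so they cannot show how the fit behaves with these features. The methods describe 3 independent experiments, with both genotypes sorted in each, and the replicate number was taken to mark the experiment. Deviations from the group means correlated by 0.01, 0.07 and 0.14 for numbers 1, 2 and 3 and by -0.03 between numbers, and for 13 of 17 arrays the closest array of another group shared the number. The number was a block in an alternative fit. The array number limits the precision.

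Genes were named for an adjusted p under 0.05, for the 8 smallest p over the 3 treatments or the 3 smallest in another comparison (some are given only as counts), for the 3 highest and lowest means or spreads, or as well known chromatin genes. The genes and lists were chosen with earlier results of these data known.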

Additional observations from a re-analysis of the deposited data

How the results depend on the processing

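The Chd9 call under TNFR1 BA became 0 chromatin genes with only the groups compared and by the methods' paired test on 3 pairs. It also became 0 without probe sets of mean signal under 5, where Chd9 itself is left out. Leaving out single arrays or replicate numbers gave 0 to 1. With the replicate block the count over the 3 treatments was 1 (Kdm1a), and the block changed no other call. All other counts stayed at 0. Of 1196 alternative values for 41 named differences 0 changed direction, 1185 kept direction and side of the threshold, 10 lost the threshold and 1 passed it. These differences were chosen by their p in the same data, and the alternative fits share most arrays. Only Chd9 under TNFR1 BA had passed in the main fit, so the total is no measure of robustness. All 10 losses were of that Chd9 call, out of its 29 alternative values. The median difference of the chromatin genes was less stable. For untreated genotypes it was 0.0026 with all 18 arrays and 0.38 with median centring (0.03 to 0.48 with single arrays left out, -0.0011 without all arrays numbered replicate 2). For TNFR1 BA in JAK2V617F+ cells it was 0.0198 with all 18 arrays, -0.24 with quantile normalization, -0.29 with median centring and -0.16 with array weights (-0.35 to -0.0057 with single arrays left out). For TNFR2 BA in JAK2V617F+ cells it was 0.23 with all 18 arrays (-0.11 to 0.25 likewise). For TNFR1 BA in JAK2V617F- cells it was 0.0736 with quantile normalization, 0.0882 with median centring, -0.0681 without probe sets of mean signal under 5 and -0.0156 with array weights (-0.18 to -7.450e-04 likewise). The genotype median under TNFR2 BA ranged from -0.052 to 0.36 with single arrays left out and was 0.42 without all numbered replicate 3, and that of TNFR2 BA in JAK2V617F- cells from -0.0477 to 0.35. Over the 3 treatments the genotype median was 0.05 with all 18 arrays and 0.07 without all numbered replicate 1. The cause was not tested. Where an untreated JAK2V617F+ array is left out, the lone array is assumed to vary like the other groups. The mean over the probe sets of a gene could not be run, since each gene has 1.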

Other observations

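The untreated JAK2V617F+ array that was left out had a median signal of 6.05 over all probe sets, against 7.41 to 7.75 on the 17 arrays used, and 31 of the 102 chromatin genes were under 4 on it, against 15 to 23. Its chromatin genes were both lower and higher than on the other arrays of its group. Smarcc2 was at 4.88 on it and at 10.68 and 10.82 on the arrays used, and Kmt2a was at 2.77 against 6.41 and 5.33. Sirt2 was at 12.05 against 10.51 and 10.60, and Arid1a, at 13.38, was above all 17 arrays used.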
